A study of Mus musculus with 6 samples.

Results

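The 10 genes described here encode secreted or cell-surface cytokines and chemokines that activated B cells are known to make: Il6, Il10, Ebi3, Tnf, Lta, Ltb, Ccl3, Ccl4, Ccl5 and Ccl22. They were chosen by name, and all 10 of 10 were found among the 41669 gene symbols of the deposited table. Their levels were read in 6 RNA sequencing libraries of splenic B cells from late-stage NZB/W F1 mice, a hybrid of the NZB and NZW strains that develops a lupus-like disease. The 2 groups were 3 female and 3 male mice of this strain with late disease, 1 library per mouse, and their ages are not given in the labels. In both groups the B cells were taken on a positive-selection column and kept in culture with CpG for 24 h. CpG DNA acts on Toll-like receptor 9. Unstimulated cells and healthy mice are not among these libraries, so a level here is a level after stimulation and not an induction. The labels do not name the antibody of the column.

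Cytokines carry signals between immune cells, and B cells contribute them beside antibody. IL-6 is a pro-inflammatory cytokine that supports plasma cells and helper T cells, and IL-10 restrains inflammation and marks regulatory B cells. EBI3 is the shared subunit of the heterodimers IL-27 and IL-35. TNF, lymphotoxin alpha and lymphotoxin beta form one branch of the TNF family, in which lymphotoxin beta anchors lymphotoxin alpha at the cell surface and the complex shapes lymphoid follicles. CCL3, CCL4 and CCL5 draw leukocytes to sites of inflammation, and CCL22 draws cells through CCR4. Stimulation through Toll-like receptor 9 activates NF-kappaB, a transcription factor with known targets among these genes.

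Several of the genes are neighbours in the mouse genome (GRCm38, GENCODE M21). Ltb, Tnf and Lta lie in a row on chromosome 17, at 35194439 to 35196320, 35199381 to 35202007 and 35203165 to 35205351, with 3060 bases between the first pair and 1157 between the second. Ebi3 is elsewhere on the same chromosome (55952640 to 55957022). Ccl5 (83525778 to 83530518), Ccl3 (83647844 to 83649355) and Ccl4 (83662584 to 83664683) share chromosome 11, where 13228 bases separate Ccl3 from Ccl4. Il10 is on chromosome 1 (131019845 to 131024974), Il6 on chromosome 5 (30013114 to 30019981) and Ccl22 on chromosome 8 (94745590 to 94751699).

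Promoter windows from RefSeq (GRCm38.p6), running from 250 bases before the start to 50 after it, were found for 7 of the 10 genes, Il6, Ebi3, Tnf, Lta, Ltb, Ccl3 and Ccl22. Those of 5 genes are shown from base -250 to base -1 because they represent the 2 patterns across libraries described later: Il6 and Ccl3 were highest in replicate 2 of both sexes, and Tnf, Lta and Ebi3 were highest in female replicate 1 and lowest in female replicate 3. Capitals mark a match, on either strand, to the NF-kappaB motif, to the AP-1 motif TGANTCA or to the TATA motif TATAAA.
Il6, chr5:30012864-30013113, plus strand: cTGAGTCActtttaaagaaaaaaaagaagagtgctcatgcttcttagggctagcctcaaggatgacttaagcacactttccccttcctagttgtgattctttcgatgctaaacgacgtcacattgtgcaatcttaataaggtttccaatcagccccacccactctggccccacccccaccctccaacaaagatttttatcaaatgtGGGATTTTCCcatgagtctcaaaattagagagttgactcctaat
Ccl3, chr11:83649379-83649628, minus strand: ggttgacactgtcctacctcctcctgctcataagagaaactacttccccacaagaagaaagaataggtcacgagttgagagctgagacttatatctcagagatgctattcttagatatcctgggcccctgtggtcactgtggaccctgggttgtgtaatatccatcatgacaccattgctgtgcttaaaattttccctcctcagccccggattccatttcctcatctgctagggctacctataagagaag
Tnf, chr17:35202008-35202257, minus strand: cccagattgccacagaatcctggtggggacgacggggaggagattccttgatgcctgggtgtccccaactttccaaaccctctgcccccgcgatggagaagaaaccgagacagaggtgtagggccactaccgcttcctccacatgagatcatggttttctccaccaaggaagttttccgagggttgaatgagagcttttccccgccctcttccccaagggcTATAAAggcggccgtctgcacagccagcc
Lta, chr17:35205352-35205601, minus strand: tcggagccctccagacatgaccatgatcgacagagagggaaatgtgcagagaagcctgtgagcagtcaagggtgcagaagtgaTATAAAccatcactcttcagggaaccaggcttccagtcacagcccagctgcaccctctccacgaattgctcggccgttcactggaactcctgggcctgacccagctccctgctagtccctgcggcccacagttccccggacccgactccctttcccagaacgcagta
Ebi3, chr17:55952373-55952622, plus strand: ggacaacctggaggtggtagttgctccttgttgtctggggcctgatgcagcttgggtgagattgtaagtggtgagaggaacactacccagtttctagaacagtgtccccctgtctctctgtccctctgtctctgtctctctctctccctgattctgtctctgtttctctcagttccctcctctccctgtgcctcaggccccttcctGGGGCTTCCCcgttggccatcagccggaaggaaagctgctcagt

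The NF-kappaB motif was found in 3 of the 7 windows, those of Il6, Ebi3 and Ltb, against 8.46% of all 32851 mouse windows of 300 bases. In Il6 and in Ebi3 it stood at the same place, from -44 to -35, counted from the RefSeq start. The Ebi3 window held a second match, from 15 to 24. GENCODE starts Ebi3 further on, at 55952640, so its positions depend on the annotation. The AP-1 motif was found in the Il6 window alone (-249 to -243; 7.81% of all windows), and TATAAA in Tnf (-29 to -24) and Lta (-167 to -162; 13.6% of all windows). None of these matches overlapped another. The 2 patterns across libraries were not divided by the NF-kappaB motif, since Il6 and Ebi3 both held it. The windows of Ccl3 and Ccl22 held none of the 3 motifs, which says only that these letters are not in these 300 bases.

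Another sequence feature was read in the transcripts. AU-rich elements, runs built on the pentamer ATTTA, are known to mark short-lived cytokine mRNAs for decay. Read on the sense strand of the longest annotated transcript, ATTTA occurred in 8 of the 10 genes. This is close to the share of 78.2% among 20649 protein-coding genes, so it does not set these genes apart. The longer TATTTAT occurred in 7 of 10, against 33.3%. Tnf held 8 copies of TATTTAT, Il10 held 4 and Lta 3, while Il6, Ccl3, Ccl4 and Ccl22 held 1 each. Ebi3, Ltb and Ccl5 held none. These shares also depend on transcript length.

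Library totals ran from 24089561 to 35659883 estimated counts, and 3 counts, the floor used here, corresponded to 0.0841 to 0.125 CPM (counts per 1000000 counts of the library). On the first principal component of all tested genes female replicate 3 lay at 94.2, and the other 5 libraries lay between -47.9 and 6.66. Genes of high GC content were low in it. In the quartile of tested genes with the highest GC content its median deviation from the mean of the 6 libraries was -0.71 log2 units, against 0.38 in the quartile with the lowest. Female replicate 1 lay the other way, at 0.42 and -0.18, and female replicate 2 was near 0 in both (0.01 and 0.02).

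GC content also moved with the level itself in all libraries together. Median levels in the 4 quartiles, from the lowest GC content to the highest, were 11.7, 7.40, 3.51 and 1.15 CPM per kb of transcript. Of the defining B cell genes, the antigen receptor subunit gene Cd79a (54.9% GC) had 4.61 to 29.4 CPM, whereas Ms4a1, which encodes CD20 (40.6% GC), had 1424 to 1658 CPM. All 10 B cell markers of the list were detected and passed the low-count filter. The GC content of the cytokine transcripts ran from 39.3% in Il6 to 61.0% in Ltb, so comparisons between these genes carry this relation with them. Its part in their order was not tested.

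Ccl3 was by far the most abundant of the 10 genes. Female replicates 1 to 3 had 38.0, 114 and 43.5 CPM, and male replicates 1 to 3 had 46.1, 104.3 and 31.8 CPM. Replicate 2 of each sex stood above the other 4 libraries, and the sexes overlapped. Ccl3 made up 53.9 to 75.0% of the summed CPM of the 10 genes in a library. Per kb of its transcript it averaged 82.2 ± 47.3 CPM (SD, n = 6), which placed it at the 96.6th percentile of the annotated genes with any count.

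Ccl4, the neighbour of Ccl3, was near the low end of the measurable range. Its levels were 0.660, 1.08 and 0.141 CPM in the females and 0.222, 0.508 and 0.330 CPM in the males. Female replicate 2 was the highest library and replicate 2 was also the highest among males. The Ccl3 level per kb exceeded that of Ccl4 in 6 of 6 libraries, by 49.5 to 265-fold. This ratio was lowest in female replicate 1 and highest in female replicate 3. The transcripts have 46.2% and 49.2% GC and lie in neighbouring quartiles of GC content, with median levels of 7.40 and 3.51 CPM per kb. The part of GC content in the ratio was not tested.

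Ccl22 followed the same pattern at low counts. It had 0.206, 1.32 and 0.0848 CPM in the females and 0.127, 0.689 and 0.0600 CPM in the males, from 1.99 to 38.9 estimated counts. Replicate 2 was the highest library of each sex, and male replicate 3 was under the floor of 3 counts. Ccl5, which T cells and natural killer cells make in quantity, passed the floor in male replicate 2 alone, at 0.255 CPM. It had 0.832, 2.47 and 0 counts in the females and 2.08 and 0.834 in the other males, so it was not detectable there at this depth.

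Il6 had 11.4, 27.1 and 5.10 CPM in the females and 10.7, 16.2 and 12.5 CPM in the males. Female replicates 2 and 3 were the highest and the lowest of the 6 libraries, and the 3 males lay between them. Il10 had 9.45, 27.1 and 7.21 CPM in the females and 5.87, 10.6 and 5.61 CPM in the males. Female replicate 2 stood 2.56-fold above the next library, which was male replicate 2, and the other 5 libraries lay between 5.61 and 10.6 CPM.

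**Figure D1:**
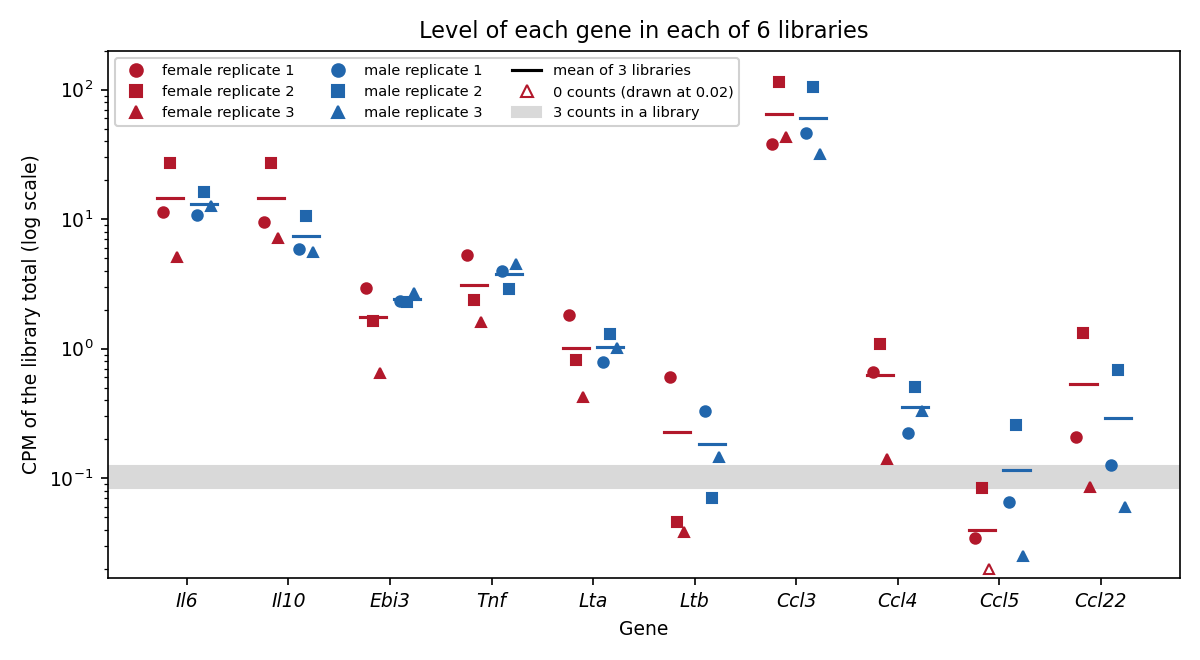
Level of each gene in CPM of the library total (log axis) in the 6 libraries, with lines for the mean of 3 libraries per sex and a grey band for the level of 3 counts. Squares, which mark replicate 2, are highest within both sexes for Il6, Il10, Ccl3, Ccl4, Ccl5 and Ccl22, and Ccl3 lies from 31.8 to 114 CPM. The Ccl5 values of the females are all under 3 counts.

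Tnf was lower and had another pattern. It had 5.32, 2.37 and 1.61 CPM in the females and 3.97, 2.90 and 4.47 CPM in the males. Here replicate 2 was the lowest male library and the middle one of the females. Lta, its neighbour on the chromosome, had 1.82, 0.814 and 0.424 CPM in the females and 0.793, 1.31 and 1.02 CPM in the males. For both genes female replicate 1 was the highest library and female replicate 3 the lowest.

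Ebi3 had 2.93, 1.65 and 0.654 CPM in the females and 2.33, 2.30 and 2.68 CPM in the males. The males lay close together (2.44 ± 0.213, SD, n = 3) within the wide range of the females (1.74 ± 1.14, n = 3). An antisense gene, Gm16712, overlaps Ebi3 in the annotation. It had 141 to 317 estimated counts against 23.3 to 89.1 for Ebi3. No source used here says that reads were assigned by strand, so those from the overlap cannot be told apart, and the Ebi3 values are uncertain for that reason.

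Ltb had 14.5, 1.34 and 1.36 estimated counts in the females and 10.4, 1.93 and 4.84 in the males. It passed the floor in 3 libraries, at 0.601, 0.330 and 0.146 CPM, and was not detectable at this depth in the other 3. Its transcript has the highest GC content of the 10 (61.0%), and the 2 libraries with the most Ltb, replicate 1 of each sex, were also those in which the quartile of genes with the highest GC content was highest (0.42 and 0.24 log2 units). The part of GC content in the low Ltb level was not tested.

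Ordered by level per kb of the longest transcript, and averaged over 6 libraries, Ccl3 was followed by Il10 (8.38 ± 6.22 CPM per kb), Il6 (5.91 ± 3.16), Tnf (2.10 ± 0.848), Ebi3 (1.81 ± 0.717), Ccl4 (0.744 ± 0.526), Lta (0.744 ± 0.349), Ccl22 (0.187 ± 0.227), Ltb (0.145 ± 0.157) and Ccl5 (0.116 ± 0.138). Ccl3, at 41.5 CPM per kb or more in each library, did not overlap any other gene. The means of Il10 and Il6 differed by less than their SD over the 6 libraries. So did those of Tnf and Ebi3, of Ccl4 and Lta, and of the last 3 genes among themselves. This SD does not compare genes within a library. The order of Il10 and Il6 also rests on the transcript chosen: Il6 stood at 13.2 CPM per kb with the median length of its protein-coding transcripts, and Il10 was at the same value with either length.

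**Figure D2:**
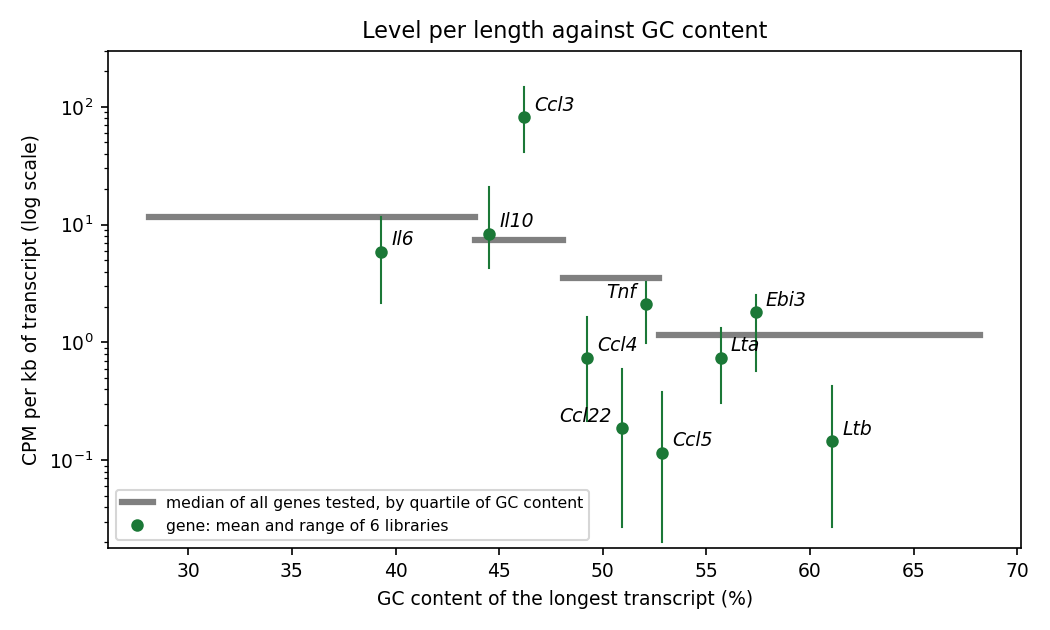
Level in CPM per kb of transcript (log axis) against the GC content of the longest transcript, as mean and range over 6 libraries for each gene (a value of 0 for Ccl5 is drawn at 0.02), with grey bars for the median of all genes tested in each quartile of GC content. Ccl3, at 82.2 CPM per kb, lies above the median of its quartile, 7.40, and Ltb, at 0.145, lies below the 1.15 of its own.

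Female and male libraries were compared gene by gene, the contrast that the study's design names. Of the 10 genes, 7 passed the low-count filter, and Ltb, Ccl5 and Ccl22 did not. In edgeR's quasi-likelihood test 0 of the 7 were called at an adjusted p under 0.05, where 0.0575% of all 12172 genes tested were called, and 0 had an unadjusted p under 0.05, where 2.89% of all genes did. None of the 10 had sexes that did not overlap, against 10.2% of all genes tested. Of their log2 fold changes (female over male) 5 were positive and 2 negative, with a median of 0.23 against 0.00095 over all genes tested. In bulk samples fewer cells of a type and less RNA per cell cannot be told apart.

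The widest difference was that of Il10, with 14.6 ± 10.9 CPM in the female mice and 7.36 ± 2.80 CPM in the males (SD, n = 3 each), a log2 fold change of 1.10 ± 0.51 (SE; edgeR unadjusted p = 0.0645, adjusted p = 0.9987). Without female replicate 2 the log2 fold change was 0.34 (adjusted p = 0.9992), so its size rests on that library. Il10 was called in 1 of 16 alternatives, limma-voom with sample quality weights (log2 fold change 2.03, adjusted p = 0.0336, where 1.88% of all genes were called). That setting gave its highest weight, 4.00, to female replicate 2 and its lowest, 0.201, to female replicate 3. In the other alternatives the adjusted p lay between 0.4054 and 1.

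Markers of other cells were read beside these values. Of the monocyte and macrophage list, 12 of 13 genes were in the table, and their summed level was 5.04 to 9.60 CPM in the female mice and 1.46 to 1.51 CPM in the males, with the highest sum in female replicate 2. Among the males replicate 2 had the lowest sum (1.46 CPM). The 4 that passed the filter had positive log2 fold changes (median 2.67, from 0.06 for Cd68 to 3.40 for Msr1), and 0 were called by edgeR. A gene low in the males can pass this filter through the female libraries alone. The signs of these 4 genes are therefore no support for a difference between the sexes. Lyz2, a lysozyme gene, had 2.20 to 3.32 CPM in the females and 0.282 to 0.390 in the males. The transcription factor gene Spic had 0.929 to 2.16 against 0.307 to 0.400 CPM and the scavenger receptor gene Msr1 0.860 to 1.73 against 0.0601 to 0.202 CPM. The sexes did not overlap for these 3 genes, whereas Cd68 overlapped (0.197 to 0.906 against 0.479 to 0.823 CPM). The complement genes C1qa, C1qb and C1qc had at most 0.0678 CPM and the receptor gene Csf1r at most 0.137 CPM in a library. Their transcripts have 54.5 to 59.5% GC, in the quartile whose levels were lowest, so these values are not read as absence.

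The plasma cell list (7 of 8 genes in the table) also had its highest sum in female replicate 2 (262.4 CPM against 155.7 to 232.9 in the other libraries), but its genes did not move as one. Among the males replicate 2 lay between the others (179.6 against 165.7 and 183.5 CPM). Prdm1, a transcription factor gene of plasma cell differentiation, had 61.5 CPM there and 11.7 to 22.9 elsewhere, while Sdc1, which encodes the plasma cell surface protein CD138, was at its lowest there (1.58 against 1.80 to 3.22 CPM). Mzb1 and Xbp1, genes of antibody secretion, were highest in female replicate 1, at 45.7 and 124.2 CPM. Igj, the antibody joining chain gene, had 37.7 to 48.4 CPM in the females and 17.0 to 18.3 CPM in the males, with no overlap (log2 fold change 1.51 ± 0.22, edgeR adjusted p = 0.169). Sdc1, Mzb1 and Xbp1 have 53.0 to 55.2% GC, against 46.3% for Prdm1 and 38.2% for Igj. The part of GC content in their different patterns was not tested.

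The natural killer cell list without Ccl5 was highest in female replicate 2 too (7.59 against 1.85 to 4.05 CPM), through Klrb1c at 7.39 CPM, while Ncr1, Gzmb, Prf1 and Nkg7 were at 0 in all 6 libraries. The T cell list (13 genes) summed to 8.63 to 21.9 CPM in the female mice and 12.9 to 23.9 CPM in the males. The signalling genes Cd247 (3.94 to 18.7 CPM) and Lck (1.26 to 2.79 CPM) and the CD3 chain gene Cd3d carried most of it. Cd3d had 2.32 to 4.54 CPM in the females and 0.476 to 2.00 CPM in the males, with no overlap (1.75 ± 0.64, edgeR adjusted p = 0.9987). In contrast Thy1 (55.8% GC) was at 0 and Cd3e (44.5% GC) at 0.0339 CPM or less. Dendritic cell genes summed to 4.86 to 8.46 and 5.57 to 9.78 CPM, with Flt3 at 1.09 to 4.47 CPM. Neutrophil genes summed to at most 0.654 CPM and mast cell and basophil genes to at most 1.49 CPM. Among the males, replicate 2 had the highest natural killer (4.05 CPM), T (23.9), dendritic (9.78) and mast cell (1.49) sums. The part of these cells in the cytokine levels was not tested.

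The other differences between the sexes were smaller than or close to their standard errors. Il6 had 14.5 ± 11.3 CPM in the female mice and 13.1 ± 2.77 CPM in the males, and the log2 fold change was 0.24 ± 0.50, or -0.57 without female replicate 2. Ccl3 had 65.2 ± 42.4 and 60.7 ± 38.4 CPM, a log2 fold change of 0.23 ± 0.54. It was -0.37 without female replicate 2 and -0.07 without male replicate 3. Ccl4 had 0.629 ± 0.472 and 0.353 ± 0.144 CPM (0.90 ± 0.71, and 0.22 without female replicate 2). The edgeR adjusted p was 0.9987 for all of these. Female replicate 2, the highest library for Il10, Il6, Ccl3 and Ccl4, was the one whose omission moved the difference most for Il6, Il10 and Ccl4. For Ccl3 leaving out male replicate 2 moved it as far the other way, to 0.87.

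Tnf had 3.10 ± 1.96 CPM in the female mice and 3.78 ± 0.801 CPM in the males, and the log2 fold change was -0.22 ± 0.43. Ebi3 stood at -0.42 ± 0.48 and Lta, with 1.02 ± 0.718 and 1.04 ± 0.257 CPM, at 0.03 ± 0.53 (edgeR adjusted p = 0.9987 for Tnf and Ebi3 and 0.9999 for Lta). Without female replicate 3 the values were 0.01 for Tnf, -0.09 for Ebi3 and 0.33 for Lta. Without female replicate 1 they were -0.73, -0.93 and -0.57. None of the 10 was called in any of these fits. DESeq2 and limma-voom called 0 of the 10 genes as well, where they called 0.19% and 0.0739% of all genes.

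**Figure D3:**
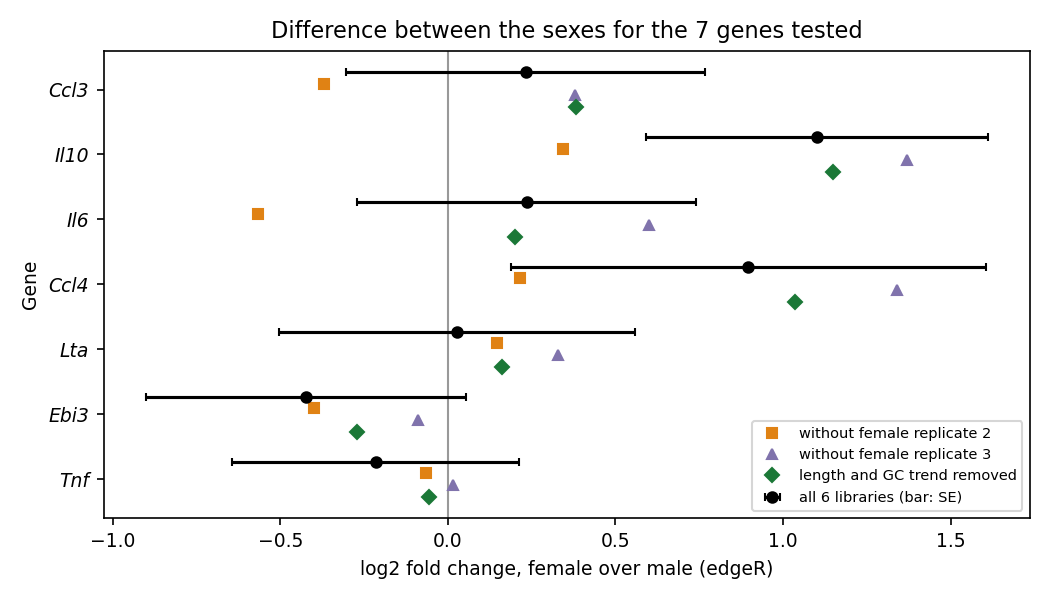
Log2 fold change (female over male, edgeR) of the 7 genes tested, with all 6 libraries (black, bars are the SE), without female replicate 2 or 3, and with the trend on length and GC content removed. Il10 is at 1.10 with all libraries and at 0.34 without female replicate 2, and Il6 and Ccl3 change sign there.

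Apart from sex, the genes varied from library to library. With 1 library per mouse, differences between mice, cultures and libraries cannot be told apart. Within a sex, the SD of log2 CPM was 0.87 for Ccl3, 0.90 for Ccl4, 0.79 for Il6, 0.75 for Il10, 0.62 for Lta, 0.62 for Ebi3 and 0.54 for Tnf, against a median of 0.37 over all genes tested. All 7 lay above that median, from the 69.6th percentile (Tnf) to the 88.8th (Ccl4). These percentiles are over genes of all levels, while Ccl4 had 5.04 to 31.9 estimated counts and Lta 15.1 to 43.75.

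The deviations are described as 2 patterns, which were not exclusive. In the first, Il6, Il10, Ccl3, Ccl4 and Ccl22 were highest in replicate 2 among the females and again among the males. Ccl5 had the same order, but its counts in the females were all under the floor. The share of all genes with this order is not given here. In log2 units from its own mean, female replicate 2 stood at 1.55 for Il10, 1.30 for Ccl4, 1.15 for Il6 and 1.05 for Ccl3. Male replicate 2 stood at 0.84 for Ccl3, 0.32 for Il6, 0.22 for Ccl4 and 0.11 for Il10. The labels tie no female to a male of the same number. Across all genes the correlations of libraries with the same number were weak (0.22, 0.04 and 0.07 for replicates 1 to 3). In the second pattern, Tnf, Lta and Ebi3 stood at 0.53 to 0.82 in female replicate 1 and at -0.69 to -1.19 in female replicate 3. Ccl4 shared this, at 0.54 and -0.99, and Il6 stood at -0.97 in female replicate 3. Lta was also highest among the males in replicate 2 (0.39).

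The libraries' trend on transcript length and GC content ran the same way as the second pattern. This trend, fitted in each library over all genes tested, put Ebi3 at 0.56 in female replicate 1 and -1.04 in female replicate 3, Lta at 0.48 and -0.91, and Tnf at 0.27 and -0.60. With the trend removed, the within-sex SD of Ebi3 was 0.16 in place of 0.62, that of Lta 0.38 in place of 0.62 and that of Tnf 0.32 in place of 0.54. The median over all genes tested was 0.32 in place of 0.37. Female replicate 3 then stood at -0.15 for Ebi3, 0.12 for Lta and -0.08 for Tnf.

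In female replicate 2 the fitted trend was near 0 for Il6 (-0.0012), Il10 (-0.011), Ccl3 (0.017) and Ccl4 (0.023). Its removal could therefore not move this library, and is no check of the first pattern there. With the trend removed, female replicate 2 stood at 1.56 for Il10, 1.27 for Ccl4, 1.15 for Il6 and 1.03 for Ccl3. Male replicate 2 then stood at 0.76 for Ccl3. The within-sex SD was 0.74 for Il10, 0.87 for Ccl3 and 0.89 for Il6, while that of Ccl4 was 0.69 in place of 0.90. Il6 in female replicate 3 was further from its mean, at -1.32 in place of -0.97. The sex differences of these genes with the trend removed were 1.15 for Il10, 0.38 for Ccl3, 0.20 for Il6 and 1.04 for Ccl4, and the adjusted p was 0.9474 or more.

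**Figure D4:**
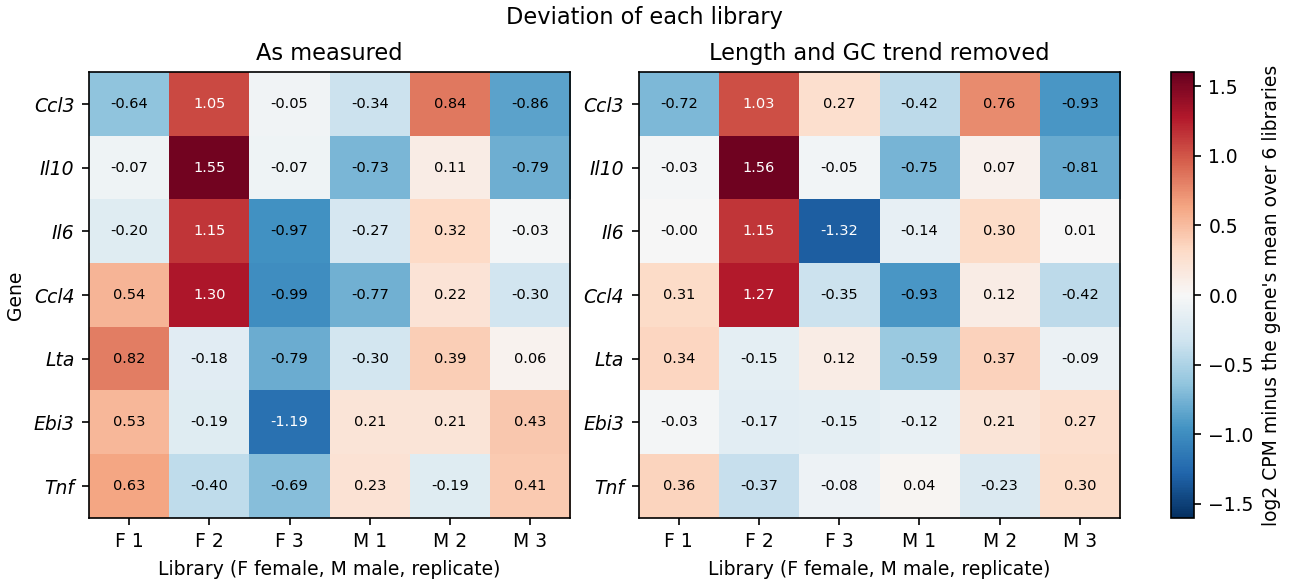
Log2 CPM of the 7 genes tested minus each gene's mean over the 6 libraries, as measured (left) and with the trend on transcript length and GC content removed (right). Female replicate 2, where the trend was near 0 for these genes, stands at 1.05 to 1.55 for Ccl3, Il10, Il6 and Ccl4 on the left. On the right it stands at 1.03 to 1.56. Ebi3 in female replicate 3 goes from -1.19 to -0.15.

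The genes most like each member across the 6 libraries were found by the root mean square difference of centred log2 CPM, among genes with at least 5 CPM. For Il6 they were the cholesterol transporter gene Npc1 (a difference of 0.22 log2 units) and Il2ra, which encodes the alpha chain of the IL-2 receptor (0.25), where the median over 7451 genes was 0.70. Il2ra had 7.77, 18.7 and 5.70 CPM in the females and 8.75 to 11.3 CPM in the males, highest in replicate 2. For Il10 they were the transporter gene Abca5 (0.27) and Mpeg1, which encodes the pore-forming protein perforin-2 (0.31), and for Ccl3 the adhesion molecule gene Alcam (0.29) and again Abca5 (0.33). Alcam had 57.2, 109.6 and 56.5 CPM in the females and 47.7, 90.4 and 43.1 CPM in the males. Ccl4 was closest to Brca2 (0.33) and to Il6 (0.39).

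For Tnf, Ebi3 and Lta the closest genes were closer still. The median over all candidates was smaller too, at 0.54 to 0.65, against 0.70 to 0.83 for Il6, Il10, Ccl3 and Ccl4. The trend on length and GC content was left in, and its part in these distances was not tested. Fgd3, Sash3, Usp5 and Trrap, named below, have 52.8 to 55.7% GC, and Rab8a and P4ha1 have 49.4 and 45.7%. Ebi3 lay 0.07 log2 units from both Rab8a, a small GTPase gene, and Fgd3. Tnf lay 0.10 from both Sash3, an adaptor gene of lymphocytes, and the collagen hydroxylase gene P4ha1, and Lta 0.13 from the deubiquitinase gene Usp5 and 0.15 from Trrap. Among the members themselves Ebi3 and Tnf were closest (0.28), followed by Ebi3 and Lta (0.34) and Tnf and Lta (0.38). Ccl3 and Ccl4, although neighbours on chromosome 11, lay 0.73 apart.

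Of the receptor genes for these cytokines, 9 of 16 passed the filter, 5 with a positive and 4 with a negative log2 fold change (median 0.06), and 0 were called. Il6ra, the IL-6 receptor alpha chain, had 0.780, 1.19 and 1.30 CPM in the female mice and 0.546, 0.375 and 0.527 CPM in the males (log2 fold change 1.37 ± 0.46, edgeR adjusted p = 0.9987). The signalling chain gene Il6st, shared by several cytokines, was far higher at 17.8 to 71.0 CPM. Il10rb, a chain of the IL-10 receptor, had 32.3, 32.7 and 22.8 CPM in the female mice and 36.2, 55.2 and 40.1 CPM in the males (-0.46 ± 0.20, adjusted p = 0.9987), and Il10ra had 3.53 to 25.6 CPM. Ccr1, a receptor of CCL3, was measured at 0.537 to 1.76 CPM. Ccr4, the receptor of CCL22, and the lymphotoxin receptor gene Ltbr did not pass the filter, at 0.0367 and 0.0825 CPM or less. Their transcripts have 46.7% and 60.4% GC.

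Partners and processing enzymes gave 0 calls among 5 of 7 genes tested (3 positive, 2 negative, median 0.18). Il12a, whose product pairs with EBI3 to form IL-35, had 2.41 to 4.01 CPM, whereas Il27, whose product pairs with EBI3 to form IL-27, had at most 0.181 CPM. Adam17, the protease that sheds TNF, had 102.9 to 177.3 CPM. Dpp4, a peptidase that trims chemokines, had 236.2 to 351.6 CPM (log2 fold change 0.18 ± 0.21) and Rhbdf2, a cofactor of ADAM17, 0.329 to 1.15 CPM (0.55 ± 0.48, edgeR adjusted p = 0.9987 for both).

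Of 40 other cytokine and chemokine genes, 12 passed the filter, 5 positive and 7 negative (median -0.11), with 0 called by edgeR. Cxcl13, a chemokine of B cell follicles, had 0.413, 1.08 and 0.509 CPM in the female mice and 0, 0 and 0.0300 CPM in the males (edgeR adjusted p = 0.315, 0.0288 with DESeq2 and 0.00489 with limma-voom and quality weights). Tnfsf11, which encodes the cytokine RANKL, had 1.90, 0.848 and 1.33 CPM in the female mice and 0.698, 0.218 and 0.720 CPM in the males (log2 fold change 1.43 ± 0.56, edgeR adjusted p = 0.9987). Of the 40, 11 were at 0 in all 6 libraries, as were 21295 of all 41669 gene symbols. Among the 11 were Ifng, Il4, Il17a and Csf2, which T cells are known to make, and also Il15, Ccl12 and Ccl24.

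All 12 genes of the list for decay and stability of cytokine mRNAs passed the filter, 6 positive and 6 negative (median -0.03), with 0 called. Zc3h12d had 24.0, 19.9 and 15.7 CPM in the female mice and 28.9, 30.3 and 28.6 CPM in the males (log2 fold change -0.44 ± 0.17) and Zfp36l2, which binds AU-rich elements, 111.7, 131.5 and 114.6 against 119.6, 98.6 and 102.2 CPM (0.30 ± 0.16, edgeR adjusted p = 0.9987 for both). Of the list for regulators of Il10 and markers of regulatory B cells, 8 of 9 genes were tested, 6 positive and 2 negative (median 0.23). Cd24a, a surface marker high on some regulatory B cells, had 1740, 2381 and 1392 CPM in the female mice and 1208, 915.8 and 1165 CPM in the males. The groups did not overlap, but Cd24a was not called (0.87 ± 0.21, edgeR adjusted p = 0.9987, 0.00816 with limma-voom and quality weights). Ahr, a receptor and transcription factor gene, had 6.32, 11.8 and 11.6 against 5.44, 7.30 and 6.72 CPM (0.79 ± 0.36, edgeR adjusted p = 0.9987). Cd5, a marker of a B cell subset that makes IL-10, was at 0 in all 6 libraries. Its transcript has 56.8% GC, in the quartile whose levels were lowest, so this 0 is not read as absence of the marker.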

How the data were processed

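RNA of CpG-cultured splenic B cells from 3 female and 3 male mice had been sequenced. Per the submitters' processing notes, kallisto, DESeq2 and the build GRCm38.p6 were used, and the sources used here give no versions or settings for them. Estimated counts were deposited, 1 column per mouse, with totals that differ between mice, by gene symbol. The reference build is that of C57BL/6J, and the effect of NZB and NZW variants on counting was not tested. The estimated counts were rounded to whole numbers for count tests. CPM is of the library total. Floors cover counting error only.

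Sexes were compared over all 12172 genes passing filterByExpr with edgeR 4.0.16 (R 4.3.3): TMM factors, quasi-likelihood test, Benjamini-Hochberg adjustment at 0.05. The SE is the size of the log2 fold change divided by the root of F. Log2 CPM used a prior count of 2. Alternatives used DESeq2 1.42.0, limma-voom (limma 3.58.1), other factors and filters, the replicate block, each library left out, and removal of a spline trend (4 degrees of freedom each) on length and GC content of the longest GENCODE M21 transcript, available for 98.7% of tested genes. The edgeR step was tested on simulated counts. The mice were separate animals.

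The members and lists were chosen with earlier results of these data known. Named genes were the 10 members, the 2 tested genes with the smallest p of each related list (0 were called) and the 2 genes nearest in pattern. Markers with a mean of at least 1 CPM in either sex could be named, and those given are a selection made after their values were seen. Other receptor, partner, cytokine and regulator genes, markers under 1 CPM and Gm16712 were named after their values were seen, as was the comparison of patterns across replicates. Figures were drawn with matplotlib 3.10.9. Some genes of the lists are counted but not reported here by name.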

Additional observations from a re-analysis of the deposited data

How the results depend on the processing

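Over all genes the 7 calls of the edgeR fit became 32 with DESeq2, 229 with limma-voom and sample quality weights, 11 with no filter and 11 once the trend on length and GC content was taken out, and 4 to 12 when 1 library was left out (12 without female replicate 1 or 3, 4 without replicate 2 of either sex or without male replicate 1). Of the 10 cytokine and chemokine genes, 0 were called in each alternative but limma-voom with sample quality weights, which called 1 (Il10). Of the related lists, 0 genes were called in each alternative but DESeq2 (1, Cxcl13) and quality weights (2, Cxcl13 and Cd24a).

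Signs changed for uncalled genes whose differences were small or rested on 1 library, and the cause was not tested. Il6 was at -0.0010 with limma-voom, -0.0071 with the replicate block and -0.10 with the block and the trend removed, and from -0.57 to 0.60 with 1 library left out. Lta was at -0.12 with limma-voom, -0.0893 with quality weights, -0.0422 with library totals only and -0.11 with the replicate block, and from -0.57 to 0.33 with 1 library left out. With 1 library left out Tnf ran from -0.73 to 0.0148 and Ccl3 from -0.37 to 0.87. Dpp4 was at -0.16 with quality weights. Quality weights also moved uncalled differences by over 1.5 times: Ccl3 was at 1.38 (adjusted p = 0.0874), Il6 at 1.01 (0.120), Ccl4 at 1.69 (0.0867) and Tnf at -0.63 (0.182), against 0.23, 0.24, 0.90 and -0.22. Il10, Ebi3 and Ccl4 kept their sign in all alternatives in which they were tested (Ccl4 had no test with the filter of 1 CPM in 3 libraries). Library totals only moved the median of all genes by -0.12.

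Deviations of libraries with the same number had correlations across genes of 0.22, 0.04 and 0.07 for replicates 1 to 3. The value of 0.22 was the highest of any female with any male, but female replicate 3 was closer to male replicate 2 (0.12). The numbers were not taken as pairs, and these values do not settle whether they are. With the replicate block 7 genes were called in all and 0 of the 10.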

Other observations

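The ratio of Il6 to Il10 did not overlap between the sexes, although the levels of Il6 and of Il10 each overlapped. This pair was picked after its values were seen, among 5 ratios computed, and no test was run on it. The ratio of Il6 to Il10, both as CPM per kb of the longest transcript, was 0.676, 0.558 and 0.396 in the females and 1.02, 0.853 and 1.25 in the males, a mean of 0.543 ± 0.141 (SD, n = 3) against 1.04 ± 0.199 (n = 3). The choice of transcript sets the scale of this ratio but not its order over libraries. On the log2 scale, centred on the 6 libraries, the difference between the 2 genes was -0.13, -0.40 and -0.89 in the females and 0.46, 0.21 and 0.75 in the males. With the trend on length and GC content removed it was 0.03, -0.41 and -1.27 against 0.61, 0.23 and 0.82, so the sexes did not overlap on either scale. Of single genes, 10.2% had sexes that did not overlap, and the share among ratios of gene pairs is not given here. The other 4 ratios, Ccl3 to Ccl4, Tnf to Lta, Ccl3 to Tnf and Ebi3 to Il12a, overlapped between the sexes.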
